A study of Rattus norvegicus with 16 samples.

Results

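The comparison set male Pink1-/- rats against male wild-type (WT) rats, both aged 8 months, by RNA sequencing of dissected brain tissue, which the title of the series places in the nucleus ambiguus. The members are the 8 male libraries of the 16 in the series, chosen because their count columns are headed by animal numbers 17 to 25. The Pink1-/- group holds animals 17, 18, 19 and 25 and the WT group animals 20, 22, 23 and 24, with the genotype taken from the library titles. Values per library follow that order of animals throughout, and female values the order 548, 602, 736 and 983 (Pink1-/-) and 64, 111, 504 and 980 (WT). The 8 female libraries, also aged 8 months and 4 to a genotype, appear below only beside male values, and they share no animal with the males. The strain, the change made in the Pink1 gene and any pooling of animals are not given in the labels, and no treatment is named. Each library is taken as 1 animal from its number. If that is wrong, the p-values measure technical spread between libraries.

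PINK1 is a kinase that is degraded in healthy mitochondria and accumulates on damaged ones, where it phosphorylates ubiquitin and activates the ubiquitin ligase Parkin, so that the organelle is handed to autophagy. Loss of the human gene causes an early form of parkinsonism. The nucleus ambiguus is a column of cholinergic motor neurons in the medulla that drives the muscles of the larynx, pharynx and soft palate, and speech and swallowing are impaired in the human disease.

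Library totals lay between 10959412 and 13691846 estimated counts. Levels are CPM, the counts of a gene scaled to the size of its library with TMM factors (trimmed mean of M-values). They are not corrected for gene length, so levels are compared between libraries and not between genes. Differences are log2 fold changes of Pink1-/- over WT with their standard error (SE), and genes named as called, risen or fallen had a Benjamini-Hochberg p below 0.05 in the quasi-likelihood test of edgeR, adjusted over all 13770 genes tested. In whole tissue, fewer cells of a type and less RNA per cell cannot be told apart. Chat, the acetylcholine-synthesizing enzyme that defines motor neurons of this nucleus, was present in all 8 libraries at 21, 6.78, 13.3 and 19.8 CPM in Pink1-/- and 7.19, 8.63, 27.1 and 21.1 CPM in WT (exact 2-sided permutation p = 0.771). The motor neuron transcription factors Isl2 and Mnx1 had at most 3 counts in any library. The level of Chat thus varied between libraries of 1 genotype more than between the genotypes. Libraries 17 (Pink1-/-) and 23 (WT) stood apart, as the cytoplasmic 7SL RNA took 4.28%, 1.42%, 1.45% and 1.16% of counts in Pink1-/- and 1.24%, 1.16%, 0.282% and 1.12% in WT (exact permutation p = 0.0857; smallest possible 0.0286). The number of calls is given with and without both, and the stability of single calls with each library left out in turn.

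Pink1 itself had 2.32, 1.71, 1.99 and 1.51 CPM in Pink1-/- and 66.7, 68.6, 64.7 and 78.3 CPM in WT. The residual level was small but above 0 in all 4 Pink1-/- libraries, and no library carried a level against its label. Of all 13770 genes tested, 2.3% were called. Of the 40 tested genes placed next to Pink1 in the gene order of the RefSeq assembly GRCr8 (20 on each side), 1 was called, the farthest on one side. That gene was Padi2, a peptidylarginine deiminase that converts arginine to citrulline, at 68.2, 68.7, 66.3 and 60.8 CPM in Pink1-/- and 39.8, 48.6, 36.4 and 45.2 CPM in WT (log2 fold change 0.63, SE 0.09, edgeR adjusted p = 0.00427).

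Across the transcriptome, Pink1-/- brains had more of 149 transcripts and less of 168. The called rises were larger, at a median level of 8.73 CPM, and the called falls smaller, at 28.67 CPM, against 11.85 CPM over all genes tested. CPM also grows with gene length. Those 317 calls are 2.3% of the genes tested, with rises at 1.08% and falls at 1.22%. At an unadjusted p under 0.05 stood 26.2% of genes, and 15.2% of all genes tested had groups that did not overlap. Among the 317 calls the groups did not overlap in 313, so a lack of overlap adds little to a call. The median size of a called rise was 0.72 on the log2 scale and the median called fall -0.52. A change of under 1.5-fold made up 99 of the falls but 43 of the rises, and a change of over 2-fold made up 32 of the falls and 46 of the rises. Over 5 equal bins of mean CPM, the share of rises lay between 0.871% (above 41.9 CPM) and 1.42% (3.01 to 7.75 CPM). The share of falls varied more, from 0.726% in the lowest bin and 0.509% in the next to 2.14% above 41.9 CPM. The median log2 fold change of all genes also drifted with level, at 0.1 in the lowest bin and -0.07 in the highest, and the Spearman rank correlation between log2 fold change and level was -0.17 across the 13770 genes, which share libraries and are not replicates. The smallest change called was 0.87 in the lowest bin and 0.28 in the highest. The number of calls fell whichever library was left out. It was 98 without WT 22, 127 without Pink1-/- 18, 132 without WT 23 and 164 without Pink1-/- 25. It was 178 without WT 20, 185 without Pink1-/- 17, 188 without WT 24 and 217 without Pink1-/- 19. Of those 217, 173 were among the 317. With the 7SL level as a covariate 82 genes passed, of which 79 were among the 317. With 17 and 23 both left out 153 passed, of which 124 were among the 317.

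**Figure D1:**
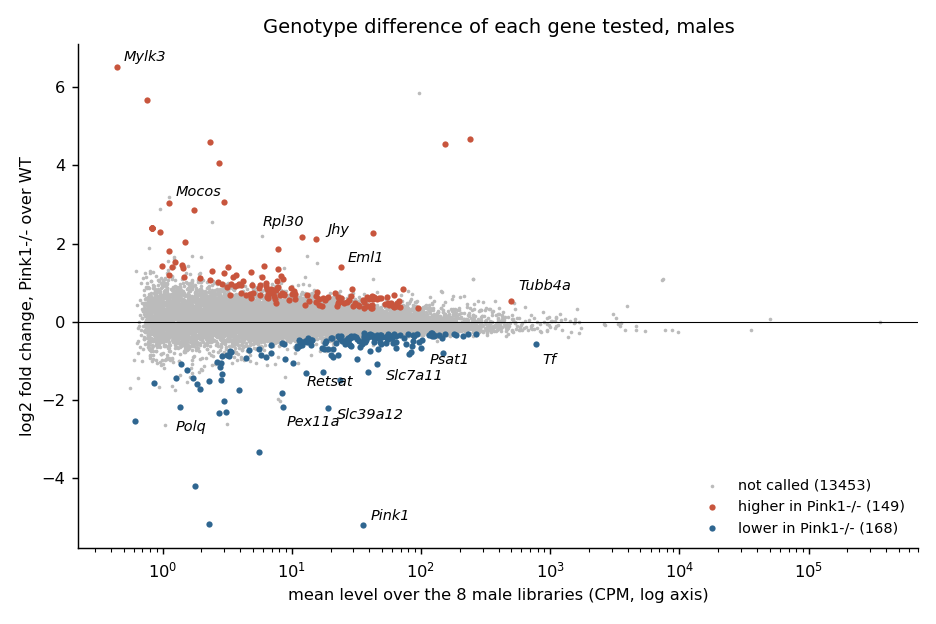
Each point is 1 of 13770 genes, with its mean level over the 8 male libraries (CPM, log axis) against the log2 fold change of Pink1-/- over WT; coloured points are the 149 rises and 168 falls. Called falls crowd the right side of the plot close to 0, while called rises spread over all levels, with most of their largest changes on the left.

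A core of 82 calls (35 rises and 47 falls) held whichever single library was left out, and 70 of them (29 rises and 41 falls) also held with the 7SL level and with the Chat level as a covariate. A further 61 calls ended when any 1 library was removed. Each such fit reuses libraries of the main fit with fewer in a group. The core therefore mostly holds the calls of smallest p and is not separate evidence for them. The genes described next belong to the stable core unless stated. Counts of called genes on a list are to be read beside the 2.3% called over all genes.

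Among the rises of the core, Jhy, a gene whose loss in mice disturbs ependymal cilia and causes hydrocephalus, had the smallest p after Pink1. It stood at 23.7, 26.6, 21.7 and 28.6 CPM in Pink1-/- and at 5.84, 6.0, 5.81 and 5.62 CPM in WT. The 4 WT libraries lay within a narrow band, and each Pink1-/- library was more than 3-fold above it. The log2 fold change was 2.11 (SE 0.11, edgeR adjusted p = 1.55e-06). Of 20 tested genes on the list of motile cilia and ependyma, Jhy rose and the axonemal dynein chain Dnah11 fell (-0.54, edgeR adjusted p = 0.0222; not in the core, as the call ended without Pink1-/- 18 or 25 or WT 20 or 22, at up to 0.0754). The list's median was -0.08, against 0.01 over all genes.

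Mocos, which adds sulfur to the molybdenum cofactor of xanthine dehydrogenase and aldehyde oxidase, had 2.59, 1.87, 1.89 and 1.66 CPM in Pink1-/- and 0.254, 0.225, 0.249 and 0.228 CPM in WT. This was a rise of 8.13-fold, although the WT values correspond to 3 counts a library. Eml1, a microtubule-binding protein needed for the position of neural progenitors, had 41.3, 33.4, 31.6 and 32.2 CPM in Pink1-/- and 11.3, 16.3, 11.2 and 13.7 CPM in WT (log2 fold change 1.40, SE 0.13, edgeR adjusted p = 0.00017). Neither gene's groups overlapped, and in both library 17 was the highest of its group. Pbld1 rose 3.65-fold (13.3, 9.19, 14.7 and 12 CPM in Pink1-/- against 2.28, 3.6, 3.32 and 4.18 CPM in WT). Eqtn, known as an acrosomal protein of sperm, rose 4.11-fold (2.04, 2.34, 2.84 and 2.45 CPM in Pink1-/- against 0.931, 0.45, 0.415 and 0.532 CPM in WT). Adam1a, a relative of sperm-surface proteases, rose 2.21-fold, Fgd3, an exchange factor for Cdc42, rose 2.7-fold and Serhl2, a serine hydrolase-like protein, rose 2.54-fold.

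Among genes with a symbol, the abundant rises were smaller. Of loci without a symbol, LOC257642 rose by 4.54 on the log2 scale at a mean of 154.6 CPM. AABR07000398.1 rose by 4.67 at 241.7 CPM. Both loci were outside the core and were chosen after their values were seen. Apc2, a neuronal relative of the APC tumour suppressor that binds microtubules, had 123, 86.1, 84.8 and 82.9 CPM in Pink1-/- and 52.7, 54.5, 48.4 and 53.6 CPM in WT (log2 fold change 0.85, SE 0.12, edgeR adjusted p = 0.00326). Library 17 stood well above the other 3 Pink1-/- libraries, which were still above every WT library. Nptxr, the membrane-bound neuronal pentraxin of synapses, had 50.1, 45.0, 49.6 and 44.9 CPM in Pink1-/- and 33.3, 32.0, 29.9 and 30.9 CPM in WT (0.59, edgeR adjusted p = 0.00159). Shisa4 rose by the same order (0.67), as did the RNA-binding gene Rbm41 (0.83). The most abundant called rise was the beta tubulin Tubb4a, rich in oligodendrocytes, at 739, 553, 571 and 517 CPM in Pink1-/- and 389, 443, 357 and 448 CPM in WT (0.54, edgeR adjusted p = 0.0358). Tubb4a was outside the core: its call ended without any 1 library other than Pink1-/- 17 or 25, at up to 0.0995, and with the 7SL covariate (0.198). Limk1, the kinase that inactivates cofilin (0.53; ended without Pink1-/- 18 or WT 20, 22 or 23, at up to 0.0969), and the nuclear deubiquitinase Bap1 (0.39; ended without any library but Pink1-/- 19, at up to 0.139) were likewise outside it.

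Among the falls, Pex11a, a membrane protein that promotes the division of peroxisomes, had 2.59, 2.96, 3.21 and 3.68 CPM in Pink1-/- and 14.5, 17.3, 12.1 and 11.9 CPM in WT. The 2 groups were separated by a factor of more than 3 at their closest. Slc39a12, a zinc importer of astrocytes and other brain cells, had 7.9, 6.78, 6.9 and 5.63 CPM in Pink1-/- and 22.9, 23.6, 40.3 and 38.7 CPM in WT. Its spread lay in the WT group, where animals 23 and 24 were well above 20 and 22. Polq, the DNA polymerase theta of microhomology-mediated end joining, had 0.817, 0.701, 0.945 and 1.15 CPM in Pink1-/- and 4.91, 5.93, 3.98 and 3.5 CPM in WT, a 5.02-fold lower level. F3, tissue factor, which starts blood coagulation and is made in brain by astrocytes, had 7.22, 7.4, 8.7 and 6.2 CPM in Pink1-/- and 19.0, 19.4, 18.8 and 16.2 CPM in WT (log2 fold change -1.32, SE 0.12, edgeR adjusted p = 0.000128). The thrombin receptor gene F2r, which acts later in the same cascade, was called in the other direction (0.68, edgeR adjusted p = 0.00874; chosen after its values were seen). Retsat, which saturates retinol, had 20.6, 30.1, 22.0 and 18.1 CPM in Pink1-/- and 48.5, 43.2, 61.4 and 67.5 CPM in WT, a 2.43-fold lower level.

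Several falls of the core were small but very even between libraries. Atp1b3, the beta 3 subunit of the sodium pump, had 63.9, 68.6, 65.6 and 70.1 CPM in Pink1-/- and 99, 105, 107 and 99 CPM in WT (log2 fold change -0.61, SE 0.07, edgeR adjusted p = 0.00044). Cast, calpastatin, the natural inhibitor of calpain proteases, had 55.8, 59.6, 63.1 and 67.4 CPM in Pink1-/- and 103, 95.6, 124 and 98.4 CPM in WT (-0.78, edgeR adjusted p = 0.00111). Appl2, an endosomal adaptor that binds Rab5, had 28.1, 28.7, 27.2 and 29.1 CPM in Pink1-/- and 42.3, 43.9, 38.7 and 43.3 CPM in WT (-0.57, edgeR adjusted p = 0.00164). For Atp1b3 and Appl2 the gap between the groups was wider than the range within either, and for Cast it was about as wide as the range within WT. Ivns1abp fell 1.73-fold, Rhobtb3, an atypical small GTPase, 1.94-fold, the dermatan sulfate epimerase-like gene Dsel 1.79-fold and the Rap exchange factor Rapgef5 1.4-fold.

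**Figure D2:**
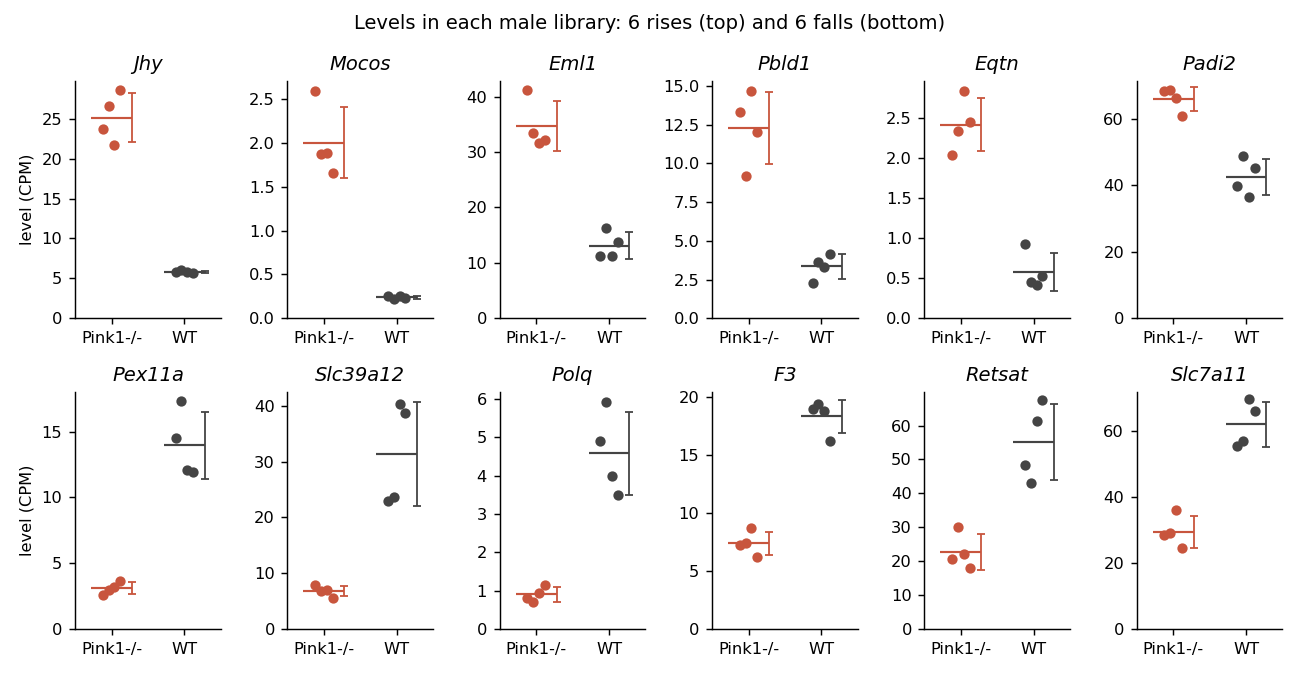
Levels (CPM, linear axes from 0) of 6 rises in the top row and 6 falls in the bottom row, 1 point for each library, Pink1-/- left and WT right; lines are means and bars 1 SD of n = 4. In all 12 genes the 2 groups do not overlap, as in 313 of all 317 calls, and Slc39a12, Polq and Retsat vary most within WT.

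Cd4, on helper T cells and in rats also on macrophages and microglia, had 2.04, 1.71, 1.8 and 1.66 CPM in Pink1-/- and 6.6, 7.95, 4.4 and 5.32 CPM in WT. Lilrb3, an inhibitory receptor of myeloid cells, had 0.341, 0.389, 0.756 and 0.505 CPM in Pink1-/- and 3.05, 2.33, 1.66 and 1.82 CPM in WT. Nlrp1a, an inflammasome sensor, had 1.5, 1.56, 1.99 and 1.51 CPM in Pink1-/- and 3.13, 4.43, 4.48 and 4.41 CPM in WT. The groups did not overlap in any of the 3. Tlr3, the receptor for double-stranded RNA, fell 2.45-fold, with Pink1-/- libraries at 5.79, 7.17, 14 and 13.4 CPM and WT libraries at 26.0, 27.4, 23.5 and 21.4 CPM. The death receptor Fas fell 2.69-fold and complement C3 1.37-fold. Of the 35 tested genes of inflammation, complement and cell death receptors 3 fell (Cd4, Fas and C3) and 0 rose, or 8.57% against 2.3% of all genes, and of these Cd4 alone was in the core. Called rises outside that list included the receptor genes Siglec5 (1.12, edgeR adjusted p = 0.0459), Tnfrsf11a (0.70, 0.0242) and Adgre5 (0.68, 0.0352), none in the core, with an adjusted p of up to 0.125 with 1 library left out; they were chosen after their values were seen. Of 26 interferon response genes Tlr3 fell and 0 rose, while the list's median was 0.21. The calls of Tlr3 (without Pink1-/- 18 or WT 22, at up to 0.0602), Fas (without Pink1-/- 18 or WT 22 or 23, at up to 0.0837) and C3 (without Pink1-/- 18 or 19 or WT 20, 22 or 24, at up to 0.101) were not in the core.

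The summed level of 13 microglia and macrophage markers was 141 to 166 CPM in Pink1-/- and 128 to 172 CPM in WT, so the groups overlapped. The T cell marker Cd3e had at most 3 counts in any library, which leaves T cells unmeasured here. Within the microglia and macrophage list the purine receptor P2ry12 rose (11.9, 11.7, 14.8 and 13.0 CPM in Pink1-/- against 8.04, 10.1, 6.89 and 8.97 CPM in WT) and the mannose receptor Mrc1 of perivascular macrophages fell (4.97, 6.31, 5.67 and 5.12 CPM in Pink1-/- against 7.53, 8.78, 9.46 and 7.75 CPM in WT). Neither call outlasted the removal of any 1 library, with an edgeR adjusted p of up to 0.13 for P2ry12 and 0.129 for Mrc1.

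Markers of meninges and fibroblasts summed to 30.8 to 34.2 CPM in Pink1-/- and 42.3 to 47.7 CPM in WT, with no overlap, and 1 of the 11 markers, Slc22a6, had at most 3 counts everywhere. Ogn, the small leucine-rich proteoglycan osteoglycin, made up most of that gap, at 3.54, 3.43, 4.44 and 3.53 CPM in Pink1-/- and 11.7, 17.7, 12.5 and 10.4 CPM in WT (log2 fold change -1.81, SE 0.18, edgeR adjusted p = 0.000248). Without Ogn the other 10 markers summed to 27.3 to 29.8 CPM in Pink1-/- and 30.0 to 33.4 CPM in WT, still without overlap but within 1 CPM at the closest. The part of meningeal tissue in the fall of Ogn was not tested. Efemp1, a fibulin of the same matrix, also fell (-0.87, edgeR adjusted p = 0.0452), a call that ended without any library but Pink1-/- 17, at up to 0.108. Thus 2 of 56 vessel and matrix genes fell and 0 rose (3.57% called, against 2.3% of all genes), with a list median of 0.12. Endothelial markers summed to 328 to 338 CPM in Pink1-/- and 341 to 353 CPM in WT, without overlap but with 0 of 9 called, whereas the sums of the other 13 marker lists overlapped between the groups.

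Among the glial and mural markers themselves, Gpr17, a receptor of differentiating oligodendrocyte precursors, rose 1.96-fold (5.04, 4.52, 3.88 and 4.47 CPM in Pink1-/- against 2.88, 2.33, 1.83 and 2.13 CPM in WT). Pdgfrb, the receptor that holds pericytes to vessels, rose 1.5-fold (23.5, 20.7, 21.1 and 21.6 CPM in Pink1-/- against 16.4, 16.4, 11.4 and 13.8 CPM in WT), and its ligand gene Pdgfb rose 1.59-fold (4.09, 3.89, 3.88 and 4.62 CPM in Pink1-/- against 2.62, 2.4, 2.82 and 2.51 CPM in WT), the 1 called of 55 growth factor genes. Ligand and receptor thus rose together, each without overlap. Aspa, which breaks down N-acetylaspartate in oligodendrocytes, fell 1.34-fold (25.5, 33.1, 33.0 and 31.9 CPM in Pink1-/- against 42.4, 43.0, 40.8 and 39.3 CPM in WT). All 4 calls were outside the core: Gpr17 ended without Pink1-/- 18 or 25 or WT 22, 23 or 24 (up to 0.0602), Pdgfrb without any library but WT 20 (up to 0.0648), Pdgfb without any (up to 0.133) and Aspa without any but Pink1-/- 17 (up to 0.122). Of 116 tested markers over all lists 3 rose and 3 fell (5.17% called, against 2.3% of all genes). Of 16 antigen presentation genes 0 were called, with Cd74 first by p (edgeR adjusted p = 0.107).

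Genes of small-molecule transport were called in both directions. Slc7a11, the cystine-glutamate exchanger that feeds glutathione synthesis, had 28.6, 29.0, 36.1 and 24.4 CPM in Pink1-/- and 55.4, 56.9, 69.7 and 66.1 CPM in WT (log2 fold change -1.08, SE 0.12, edgeR adjusted p = 0.000452). Slc7a5, the large neutral amino acid transporter, rose (32.4, 26.7, 29.1 and 27.3 CPM in Pink1-/- against 20.2, 17.9, 17.6 and 20.0 CPM in WT; 0.61, edgeR adjusted p = 0.00541). Both are partners of the same heavy chain at the plasma membrane, and they moved in opposite directions. The peptide transporter Slc15a2 fell 1.34-fold, a call that ended without WT 22 (0.0602). That made 1 rise and 2 falls among 30 amino acid transporters, whose median was 0.09. Over the 258 solute carriers tested 2 rose and 3 fell, or 1.94%, which is near the 2.3% over all genes. The lipid transporters Abca9 (6.61, 6.31, 6.81 and 4.4 CPM in Pink1-/- against 11.7, 12.6, 11.1 and 11.4 CPM in WT) and Abca6 (-0.77, edgeR adjusted p = 0.035; ended without any library but Pink1-/- 19, at up to 0.0826) fell. They were 2 of the 10 class A genes tested (20.0%, against 2.3% of all genes) and are immediate neighbours in gene order.

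In sulfur amino acid and serine metabolism, Psat1, the aminotransferase of serine synthesis, had 81.6, 70.8, 65.1 and 90.0 CPM in Pink1-/- and 121, 130, 119 and 119 CPM in WT. Cbs, which joins serine to homocysteine, went the other way at 9.6, 8.41, 6.52 and 8.65 CPM in Pink1-/- against 4.91, 4.65, 3.15 and 4.94 CPM in WT (log2 fold change 0.91, SE 0.17, edgeR adjusted p = 0.0187; ended without Pink1-/- 18 or 25 or WT 22, at up to 0.0581). These were the 2 calls among 25 tested genes of serine synthesis and the integrated stress response, whose median was 0.06. Of 40 peroxisome genes Pex11a was the 1 called, of 26 zinc and copper genes Slc39a12, and of 38 antioxidant and glutathione genes 0. The lead antioxidant gene by p, Gstp1, had 45.0, 33.1, 45.0 and 44.1 CPM in Pink1-/- and 27.3, 34.8, 27.5 and 35.2 CPM in WT and did not pass (edgeR adjusted p = 0.0792).

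In DNA repair, Polq fell while Msh3 and Lig4 rose, 3 of 56 tested genes (5.36%, against 2.3% of all genes). Msh3, a mismatch repair protein that recognizes small loops, had 12.3, 11.0, 13.3 and 14.9 CPM in Pink1-/- and 7.53, 6.23, 7.8 and 6.69 CPM in WT (log2 fold change 0.87, SE 0.13, edgeR adjusted p = 0.00468). Lig4, the ligase of non-homologous end joining, had 26.1, 26.1, 25.0 and 30.1 CPM in Pink1-/- and 15.1, 14, 15.6 and 20.0 CPM in WT (0.73, edgeR adjusted p = 0.00793). Polq and Lig4 serve 2 alternative routes of end joining and were called in opposite directions, each in the core.

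In lists that bear on mitochondria and on PINK1 function, 0% to 5.71% of tested genes were called, against 2.3% of all genes. The share was 3.23% for mitophagy and 5.71% for nuclear genes of complex I. It was 2.44% for nuclear genes of the other complexes and 2.78% for fission, fusion and biogenesis. Of 31 mitophagy genes Pink1 was the 1 called, with a list median of -0.08. Of 20 genes of inherited parkinsonism 0 were called, and Chchd2 came closest (17.4, 13.2, 18.0 and 14.4 CPM in Pink1-/- against 11.4, 9.0, 11.6 and 11.1 CPM in WT, edgeR adjusted p = 0.0523). Among 35 nuclear genes of complex I, Ndufb7 rose at 11.8, 8.8, 5.67 and 7.64 CPM in Pink1-/- against 4.4, 4.28, 2.99 and 5.32 CPM in WT, and Ndufa6 fell at 24.9, 29.2, 30.8 and 35.9 CPM in Pink1-/- against 45.8, 38.9, 41.8 and 44.4 CPM in WT. Neither belonged to the core: Ndufb7 ended without any library but Pink1-/- 19 (up to 0.118) and Ndufa6 without any but Pink1-/- 17 or 25 (up to 0.0826). Uqcrfs1, the Rieske protein of complex III, was the 1 called of 41 such genes of the other complexes (51.1, 55.6, 55.8 and 60.4 CPM in Pink1-/- against 66.0, 66.8, 73.5 and 69.9 CPM in WT; edgeR adjusted p = 0.0489; ended without any 1 library, at up to 0.14). Protein import had 0 of 33 genes called, with Tomm22 first by p (edgeR adjusted p = 0.077), and mitochondrial ribosomal proteins 0 of 71. Spire1, an actin nucleator with an isoform that acts in mitochondrial division, was the 1 called of 36 genes of fission, fusion and biogenesis (130, 140, 133 and 145 CPM in Pink1-/- against 168, 178, 174 and 161 CPM in WT; -0.31, edgeR adjusted p = 0.039; ended without any 1 library, at up to 0.133). All 13 mitochondrially encoded mRNAs had a negative log2 fold change and 0 were called. Their summed share of counts was 5.89%, 8.21%, 8.57% and 8.21% in Pink1-/- and 8.69%, 8.91%, 9.34% and 8.76% in WT. Library 17 was the lowest, and the other 3 Pink1-/- libraries also lay below each WT library (exact permutation p = 0.0286, the smallest possible; 0.172 adjusted over 6 library measures).

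In lysosome and autophagy lists the calls were 1 rise and 1 fall of 57 lysosome genes and 1 fall of 38 autophagy genes. Ppt1, the palmitoyl-protein thioesterase lost in infantile neuronal ceroid lipofuscinosis, had 74.6, 86.8, 85.6 and 93.8 CPM in Pink1-/- and 108, 130, 121 and 111 CPM in WT. Galns, a sulfatase of keratan sulfate breakdown, rose 1.48-fold, and Atg12, the ubiquitin-like conjugate of autophagosome growth, fell 1.44-fold. These calls were outside the core, as Ppt1 ended without Pink1-/- 18 or WT 22 or 23 (up to 0.0753), Galns without Pink1-/- 17, 18 or 19 or WT 22, 23 or 24 (up to 0.129) and Atg12 without Pink1-/- 18 or 25 or WT 22 or 23 (up to 0.0782). In iron handling Tf, the iron carrier made by oligodendrocytes in brain and the most abundant called fall, was the 1 called of 23 genes, at 705, 626, 527 and 628 CPM in Pink1-/- against 993, 1016, 740 and 945 CPM in WT (-0.57, edgeR adjusted p = 0.0262). Its call ended without any library but Pink1-/- 17 or WT 23, at up to 0.0888, yet it had an adjusted p of 0.00143 with the 7SL covariate.

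Among inducible genes, Jund, the JunD subunit of AP-1, rose to 9.53, 14.5, 12.4 and 9.66 CPM in Pink1-/-, against 3.13, 5.33, 6.47 and 5.4 CPM in WT (log2 fold change 1.17, SE 0.20, edgeR adjusted p = 0.0131), the 1 called of 18 immediate early genes. Sgk1, a kinase induced by glucocorticoids, fell, and the groups overlapped at 49.8, 65.3, 76.2 and 44.6 CPM in Pink1-/- against 125, 124, 74.4 and 90.9 CPM in WT (edgeR adjusted p = 0.0459; ended without any library but Pink1-/- 19 or WT 23, at up to 0.135). Cytosolic chaperones (0 of 23) and clock genes (0 of 22) held no call, with Nr1d1 the first clock gene by p (edgeR adjusted p = 0.0702).

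Neuronal lists held 3 calls, all rises at the edge of the threshold. The sodium channel Scn3a (52.3, 45.4, 45.5 and 42.8 CPM in Pink1-/- against 39.1, 37.8, 34.8 and 33.1 CPM in WT) and the calcium channel subunit Cacna2d2 (50.1, 50.3, 45.4 and 45.6 CPM in Pink1-/- against 40.9, 34.3, 28.4 and 37.9 CPM in WT) were the 2 called of 69 channel genes, at edgeR adjusted p of 0.0487 and 0.0489. The opioid precursor Penk (73.5, 85.8, 72.2 and 80.4 CPM in Pink1-/- against 54.5, 57.7, 62.1 and 65.4 CPM in WT) was the 1 called of 14 neuropeptides. In none of the 3 did the groups overlap, yet Scn3a ended with any 1 library left out (up to 0.139), Cacna2d2 with any but WT 20 (up to 0.136) and Penk without Pink1-/- 18 or 25 or WT 20, 22 or 23 (up to 0.118). Glutamate signalling (0 of 38), GABA and glycine signalling (0 of 29) and synaptic vesicle genes (0 of 46) held no call, and 33 of the 46 vesicle genes had a positive log2 fold change, with a median of 0.09. Motor neuron markers had 0 of 9 called, and their sum spanned 173 to 417 CPM in Pink1-/- and 195 to 550 CPM in WT. Over all 33 lists together 13 members rose and 23 fell out of 1044 tested, or 3.45%, against 2.3% of all genes.

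**Figure D3:**
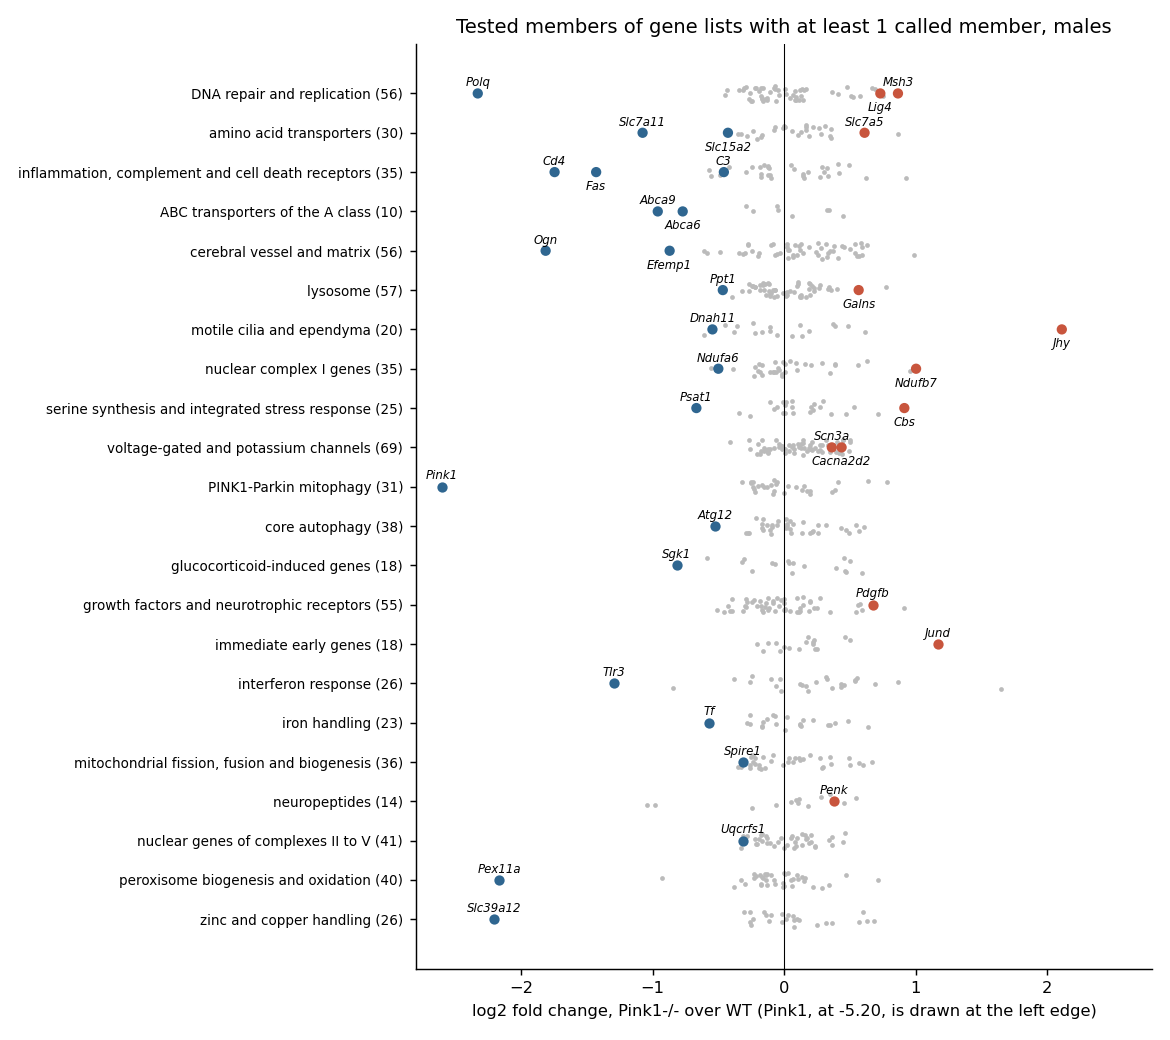
Log2 fold change of Pink1-/- over WT for each tested member of the gene lists described here that hold at least 1 called gene, with the number tested in parentheses; large coloured points are called, grey points are not. Each list holds 1 to 3 called members while most others lie near 0, and Pink1, at -5.20, is drawn at the left edge.

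A number of called loci carry a description that names the product of another gene, and each was paired with that gene. The sequences of the pairs were not compared. The submitters used RSEM, which shares reads among near-identical loci, and these pairs were picked after their values were seen. Rpl30, which encodes a protein of the large subunit of the ribosome, had 14, 18.8, 21.8 and 24.3 CPM in Pink1-/- and 4.49, 4.95, 4.73 and 3.42 CPM in WT. Its like locus LOC100362027 ran the opposite way, at 11.9, 13.9, 14.5 and 9.38 CPM in Pink1-/- and 35.9, 33.0, 35.8 and 34.6 CPM in WT. Added together, the pair stood at -0.29 on the log2 scale (SE 0.10, edgeR adjusted p = 0.110) in place of 2.16 for Rpl30 alone, so the called rise of Rpl30 turned in sign and lost its call. M6pr, the cation-dependent mannose 6-phosphate receptor that carries enzymes to lysosomes, likewise was called as a rise (0.51) while its like locus LOC100909548 was called as a fall (-0.74), and their sum did not pass (-0.23, edgeR adjusted p = 0.109).

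LOC689899, similar to Rpl23a, had 1.5, 0.857, 1.42 and 0.288 CPM in Pink1-/- and 12.2, 8.55, 10.04 and 10.03 CPM in WT, while Rpl23a itself was called as a rise (0.35), and the sum did not pass (0.20, edgeR adjusted p = 0.107). LOC100911515, described as like the glycolytic enzyme gene Tpi1, had 100, 68.0, 49.3 and 64.9 CPM in Pink1-/- and 10.7, 21.2, 12.5 and 13.5 CPM in WT. Tpi1 lay lower in Pink1-/- (191, 214, 226 and 257 CPM) than in WT (276, 274, 289 and 297 CPM) by about the same amount, and the sum stood at -0.03 (edgeR adjusted p = 0.804). LOC100361025, like the arginine methyltransferase gene Prmt1, had 6.26, 3.97, 3.31 and 4.33 CPM in Pink1-/- and 0.0846, 0.225, 0.083 and 0.304 CPM in WT, with no change of Prmt1 past the threshold (-0.02, edgeR adjusted p = 0.907) and a sum of 0.37 (edgeR adjusted p = 0.0762). For LOC100363537, like Rpl10a, the sum was 0.21 (edgeR adjusted p = 0.197). For AABR07015522.1, like the helicase Dhx15, both loci fell and so did the sum (-0.35, edgeR adjusted p = 0.0361), and for LOC100359539, like Rrm2, the sum rose (1.45, edgeR adjusted p = 0.0213). Of these loci M6pr, LOC100909548, Rpl23a, LOC100363537, AABR07015522.1, Dhx15 and LOC100359539 were outside the core, with edgeR adjusted p of up to 0.142 when 1 library was left out. Thus 6 of the 8 sums did not pass, and a difference in one of those loci alone cannot be read as a difference in the gene's total transcript.

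**Figure D4:**
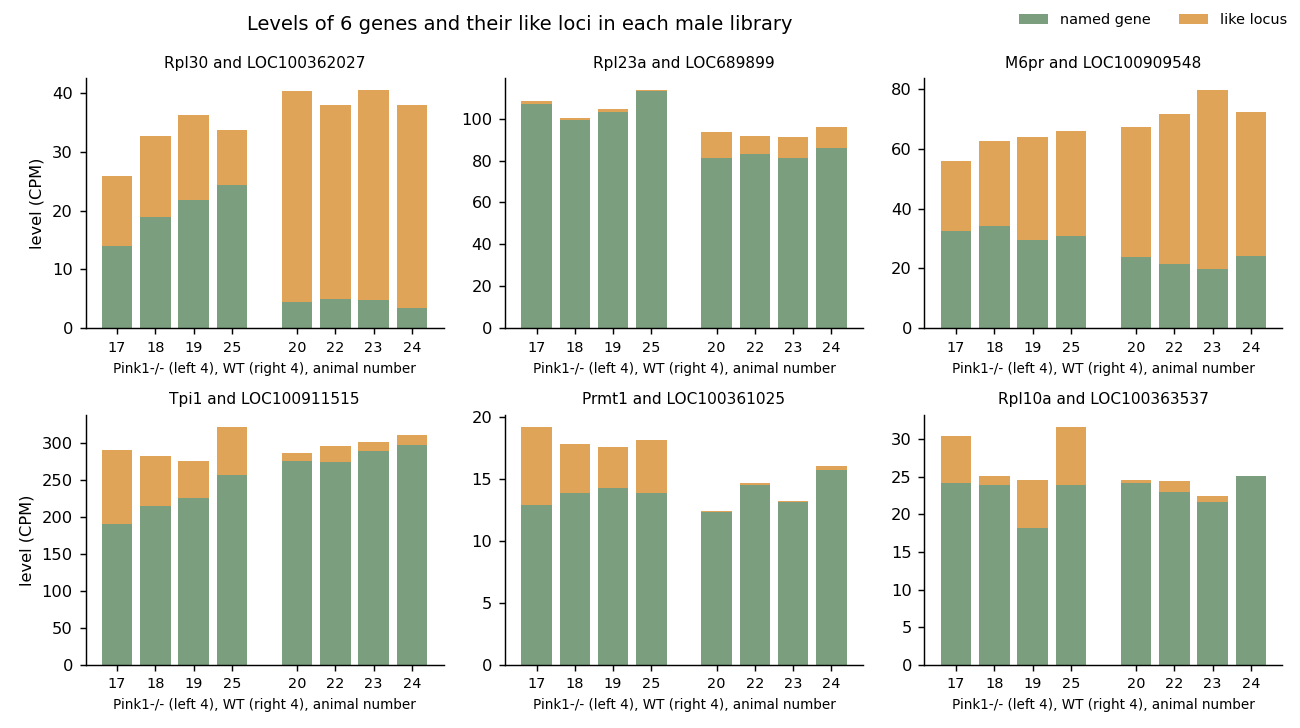
Stacked levels (CPM, linear axes from 0) of 6 named genes (green) and their like loci (orange) in each of the 8 male libraries, the 4 Pink1-/- libraries left of the 4 WT libraries. The split between the colours differs between the genotypes. On the log2 scale the stacks of Rpl30, Rpl23a, M6pr and Tpi1 differ less between the genotypes than either part does. The stacks of Prmt1 (means of 18.2 CPM in Pink1-/- and 14.1 CPM in WT) and Rpl10a (27.9 and 24.1 CPM) differ more than the named gene alone. For Rpl30, Rpl23a, M6pr and Prmt1 the stack heights do not overlap between the genotypes.

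Some called genes lie next to each other. In the gene order of GRCr8, 271 called genes could be placed, and 21 pairs of called genes were immediate neighbours among the 11803 tested genes placed. Of these pairs 17 changed in the same direction and 4 in opposite directions, whereas 61.5% of all neighbouring tested pairs had the same sign. The neighbouring genes below were chosen after their values were seen. Same-direction neighbours included Abca9 and Abca6 (both lower), Appl2 and Washc4, an endosomal WASH complex subunit (-0.57 and -0.53), Fabp7, the fatty acid carrier of radial glia and astrocytes, and Smpdl3a (-0.52 and -0.67), and the endosomal GTPase gene Rab5a with Pp2d1 and the acetyltransferase gene Kat2b (-0.42, -0.50 and -0.44). Of the genes in these pairs Washc4, Smpdl3a and Kat2b were in the core with Abca9 and Appl2, and the others were not. Strand is not given for these libraries, so reads of overlapping or adjoining genes may not be separable. In the 2 pairs described next the genes start head to head.

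Irak4 with Pus7l and Ccdc122 with Lacc1 were each called in 1 direction, and the upstream sequences of all 4 genes are shown because their starts adjoin. The 5′ ends of Irak4 and Pus7l overlap by 160 bases, so that the upstream window of each lies inside the other gene and the windows share no base. The starts of Ccdc122 and Lacc1 lie 86 bases apart, and their windows share those bases. Each window is the 250 bases before the RefSeq gene start on GRCr8, 5′ to 3′ on the strand of the gene, with matches to the GC box GGGCGG on either strand in capitals; no 2 matches overlap.
Irak4, chr7:127561527-127561776, plus strand: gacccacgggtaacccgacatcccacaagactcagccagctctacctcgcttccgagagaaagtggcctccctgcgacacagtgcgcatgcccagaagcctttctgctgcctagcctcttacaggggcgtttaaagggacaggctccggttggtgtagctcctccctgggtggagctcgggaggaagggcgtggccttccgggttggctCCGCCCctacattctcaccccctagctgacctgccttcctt
Pus7l, chr7:127561937-127562186, minus strand: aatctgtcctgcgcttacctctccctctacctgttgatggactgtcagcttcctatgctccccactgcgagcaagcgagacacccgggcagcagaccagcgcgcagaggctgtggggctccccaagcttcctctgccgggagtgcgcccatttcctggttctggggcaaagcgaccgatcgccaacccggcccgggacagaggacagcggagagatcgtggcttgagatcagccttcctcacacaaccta
Ccdc122, chr15:58816677-58816926, plus strand: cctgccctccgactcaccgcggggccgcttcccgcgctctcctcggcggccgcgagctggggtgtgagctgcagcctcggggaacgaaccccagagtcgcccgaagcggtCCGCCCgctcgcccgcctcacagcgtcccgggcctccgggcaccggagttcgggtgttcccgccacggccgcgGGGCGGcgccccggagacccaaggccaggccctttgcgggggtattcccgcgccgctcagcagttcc
Lacc1, chr15:58816841-58817090, minus strand: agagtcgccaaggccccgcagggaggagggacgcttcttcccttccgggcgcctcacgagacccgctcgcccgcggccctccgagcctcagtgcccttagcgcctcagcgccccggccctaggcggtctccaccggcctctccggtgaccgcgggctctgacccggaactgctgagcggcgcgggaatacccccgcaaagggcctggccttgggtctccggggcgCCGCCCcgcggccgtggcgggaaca
The windows of Irak4, Ccdc122 and Lacc1 hold the GC box and that of Pus7l does not, and 32.4% of the 27457 rat windows of this length hold it. The match in the Lacc1 window lies in the stretch shared with Ccdc122. None of the ETS-type GGAAGTG (8.45% of windows), TTTCGCGC (0.262% of windows), CCAAT (34.3%) and TGACGTCA (1.7%) was found in the 4 windows. A match is a description of the letters and not a binding site.

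Irak4, the kinase next to interleukin-1 and Toll-like receptors, had 4.9, 5.22, 5.29 and 5.41 CPM in Pink1-/- and 2.79, 2.93, 2.41 and 2.58 CPM in WT (0.95, edgeR adjusted p = 0.00525). Its partner Pus7l, a pseudouridine synthase-like gene, had 5.45, 7.24, 7.0 and 7.72 CPM in Pink1-/- and 2.62, 2.7, 3.4 and 2.58 CPM in WT (1.27, edgeR adjusted p = 0.0019). Both genes of this pair rose in every Pink1-/- library above every WT library. Ccdc122 had 1.23, 1.56, 1.42 and 1.73 CPM in Pink1-/- and 3.47, 3.9, 5.06 and 4.18 CPM in WT, and Lacc1, an enzyme of macrophage metabolism, had 2.38, 2.49, 2.08 and 2.16 CPM in Pink1-/- and 3.72, 3.38, 5.56 and 4.26 CPM in WT. The call of Lacc1 was outside the core (edgeR adjusted p of up to 0.12 with 1 library left out), whereas those of Irak4, Pus7l and Ccdc122 were in it. Neighbours were also called in opposite directions, as with Aldh16a1 (1.04) and Pih1d1 (-0.84), Zfp612 (-0.41) and the calcium buffer gene Calb2 (0.60), P2ry12 (0.59) and Igsf10 (-0.42), and Irak4 and Twf1 (-0.31). Of the genes in these opposite pairs Irak4 alone was in the core, and the others had an edgeR adjusted p of up to 0.146 with 1 library left out.

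The female libraries give values from other animals. The question was how many of the male calls stood on the same side there, although library processing and sex cannot be told apart in this series. In females 9 of 15265 genes were called (0.059%) and 4.64% had an unadjusted p under 0.05, and Pink1, Akr1b8 and LOC100361025 were called in both sexes. Of the 317 male calls 315 were tested in females, and 216 had the same sign (68.6%), against 55.8% of all genes tested in both sexes. With an unadjusted female p under 0.05 as well there were 53 (16.8%; 27 rises and 26 falls), against 3.13% of all genes. Of the 53, 5 loci without a gene symbol had identical values, and 49 were distinct by counts. Of the 81 calls of the core tested in females 26 met both. When a male library was left out fewer genes were called, and 27 to 43 of them met both, or 18.7% to 29.0% of the calls tested in females. It was 27 of 93 (29.0%) without WT 22, 36 of 125 (28.8%) without Pink1-/- 18 and 37 of 129 (28.7%) without WT 23. The median female log2 fold change was 0.10 for the male rises and -0.07 for the male falls, against 0.72 and -0.52 in males.

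Akr1b8, an aldo-keto reductase that detoxifies lipid aldehydes, had 5.24, 7.17, 8.41 and 5.84 CPM in male Pink1-/- and 14.6, 13.4, 11.5 and 15.3 CPM in male WT. Its female values were 21.5, 18.8, 16.2 and 18.2 CPM in Pink1-/- and 45.0, 46.7, 49.4 and 45.7 CPM in WT. The groups did not overlap in either sex, and the log2 fold change was -1.05 in males and -1.32 in females. The pseudogene Olr1747-ps, named as an olfactory receptor, also separated in both sexes, at 1.7, 1.71, 1.7 and 1.88 CPM in male Pink1-/- against 0.339, 0.45, 0.415 and 0.76 CPM in male WT, and at 1.69, 2.55, 2.59 and 1.44 CPM in female Pink1-/- against 0.218, 0.269, 0.786 and 0.671 CPM in female WT. Slc39a12 had 13.2, 12.8, 13.5 and 11.0 CPM in female Pink1-/- and 32.9, 25.3, 23.0 and 16.7 CPM in female WT (log2 fold change -0.95, edgeR adjusted p = 0.177). Atp1b3 (-0.34), Ivns1abp (-0.42), Appl2 (-0.35), Cast (-0.25), Cd4 (-1.31), Padi2 (0.42), Tf (-0.40), Cbs (0.64) and Atg12 (-0.26) were also on the male side at an unadjusted female p under 0.05, each smaller than in males and none past the adjusted threshold in females. Kif27, a kinesin (0.63), and Cmtm5 (0.56) lay close to their male values (0.68 and 0.55), are outside the core, and were chosen after their values were seen.

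Other calls of the male core were not called in females. Jhy had 15.6, 12.4, 6.21 and 8.63 CPM in female Pink1-/- and 7.07, 6.02, 12.3 and 14.6 CPM in female WT (log2 fold change 0.09, edgeR adjusted p = 0.995; interaction of genotype and sex, edgeR adjusted p = 0.0514). Slc7a11 stood at 43.3, 52.8, 40.7 and 45.8 CPM in female Pink1-/- and 38.7, 33.2, 20.9 and 50.0 CPM in female WT (0.35, edgeR adjusted p = 0.993; interaction adjusted p = 0.0501). For neither did the difference between the sexes pass the threshold. The interaction did pass for 12 of 15042 genes (0.0798%), 9 of them male calls. Slc7a5 was higher in male Pink1-/- (0.61) and lower in female Pink1-/- (-0.18), with an interaction adjusted p of 0.0165, and the values of Aaas (0.70 in males, -0.30 in females), Slc15a2 (-0.43 and 0.25) and Heca (-0.45 and 0.05) also differed, each at an interaction adjusted p of 0.0499. The male call of Aaas ended without any library but Pink1-/- 19, at up to 0.11. The number of interaction calls was 3 without male WT 22 or with library totals as the only scaling, 4 without Pink1-/- 25, 5 without Pink1-/- 17 or WT 20, and 6 without Pink1-/- 18.

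**Figure D5:**
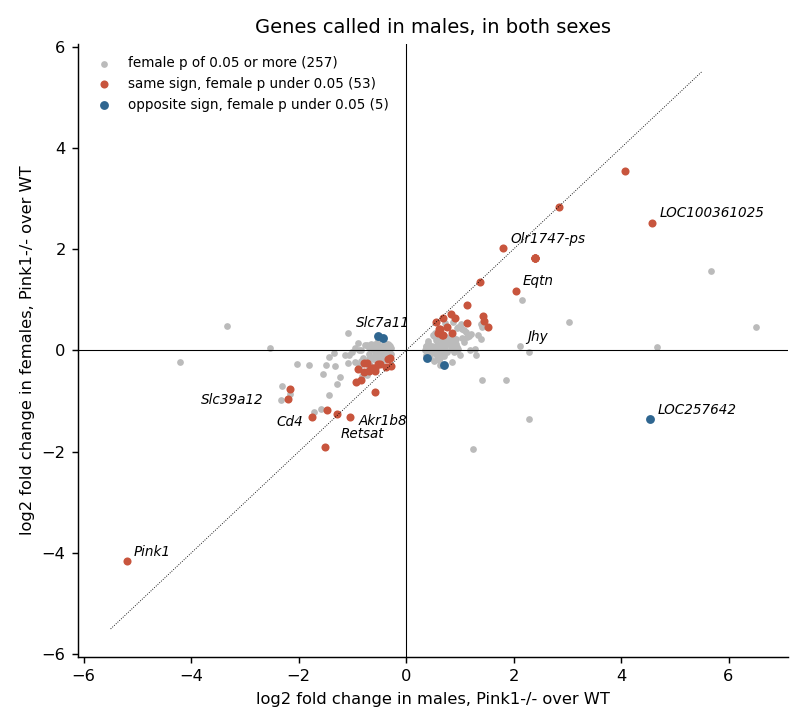
Log2 fold change of Pink1-/- over WT in males (horizontal) and females (vertical) for the 315 male calls tested in both sexes, with a dotted line of equal change. The 53 red genes share the male sign at an unadjusted female p under 0.05, most of them lie nearer to 0 in females than in males, and 5 blue genes have the opposite sign.

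At the lowest level, a few called genes were close to absent in 1 genotype. Mylk3, the cardiac myosin light chain kinase, had 0.953, 0.857, 0.851 and 0.865 CPM in Pink1-/- and 0 counts in all 4 WT libraries. It was at least 14.9-fold higher in Pink1-/- against a floor of 3 counts over the WT group, which covers counting error only. The class I histocompatibility gene RT1-N2 had 1.09, 1.79, 1.04 and 2.02 CPM in Pink1-/- and 0.0, 0.075, 0.0 and 0.0 CPM in WT. Both fall under the mean of 1 CPM asked of named genes and were chosen after their values were seen. Among loci without a symbol, AABR07021734.2 had 4.63, 4.75, 6.14 and 5.12 CPM in Pink1-/- and 0.0, 0.375, 0.664 and 0.152 CPM in WT, and AABR07001512.1 had 0.136, 0.234, 0.284 and 0.0721 CPM in Pink1-/- and 2.54, 3.9, 3.82 and 3.19 CPM in WT. In females AABR07021734.2 again was higher in Pink1-/- (log2 fold change 3.54, edgeR adjusted p = 0.0531), whereas AABR07001512.1 was not past the threshold (-0.22, edgeR adjusted p = 0.993; interaction adjusted p = 0.00116). In all, 37 of the 317 calls have no symbol in the deposited tables, and 25 of the 78 calls over 2-fold are such loci.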

How the data were processed

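The deposited tables hold estimated counts per gene made with RSEM by the authors, per the submitters' processing notes, which also name edgeR 3.9; the deposited tables of that comparison were read for gene symbols and descriptions only. Per the labels' protocols, brains were dissected and frozen, RNA was extracted with a Bio-Rad kit for fatty and fibrous tissue, and TruSeq libraries were made. The aligner, genome build and strand setting are not stated in the labels or file headers. RSEM shares reads among near-identical loci, so levels of such loci are uncertain one by one.

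The 8 male libraries were compared with edgeR 4.0.16 in R 4.3.3: low counts were filtered by group (minimum count 10, minimum total 15), TMM factors were applied, and the quasi-likelihood test was adjusted by Benjamini-Hochberg over 13770 genes. The same fit was made for the 8 females, and all 16 libraries were used for the interaction of genotype and sex. Library measures were tested by exact 2-sided permutation of 4 against 4. Replicate libraries differed well beyond sampling noise, so each was counted as 1 sample. Alternatives were other size factors, filters and thresholds, DESeq2 1.42.0, the likelihood ratio test, limma 3.58.1 voom weights, abundant loci removed, 7SL or Chat as a covariate, and each library left out. Like loci added to their parents is an alternative chosen after seeing the data.

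Genes were named by a rule: of called genes that carry a symbol and average 1 CPM or more, the 15 of smallest p, the 15 of largest change among those whose groups did not overlap and the 6 of highest level in each direction, up to 4 called members of a list, the leading gene by p of a list with no call, genes called in both sexes and interaction genes. The comparison, its 33 gene lists, 15 symbol families and 15 marker lists were chosen with earlier results of these data known. Of 1342 genes on lists and marker lists 1325 matched an identifier, 30 of them through a synonym or the comparison tables. Gene order and promoter sequences came from RefSeq, assembly GRCr8, and no coordinates of the files were used. On simulated data of this design with 13654 genes the test called 2% of genes changed 1.25-fold, 36% at 1.5-fold, 80% at 2-fold and 98% at 4-fold, so most small changes would be missed. A few results are not reported here.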

Additional observations from a re-analysis of the deposited data

Results flagged for a closer look

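In 25 of 270 groups of 4 libraries (9.26%, against about 1 in 20 by chance), 1 library lay far from the other 3, and 10 of those were library 17 (Pink1-/-). Library 17 was apart for Apc2 (123 CPM, the other 3 at 82.9 to 86.1), Aspa (25.5, others 31.9 to 33.1), Atg12 (32.8, others 41.9 to 42.8), Col11a2 (35.8, others 24.4 to 25.8), Dlg4 (124, others 81.8 to 88.1), Eno2 (544, others 432 to 446), Psmd3 (39.6, others 25.7 to 27.5) and Pyroxd2 (2.86, others 1.71 to 1.88), all in CPM. It was also apart for the 7SL share (4.28%, others 1.16% to 1.45%) and the share of mitochondrially encoded mRNAs (5.89%, others 8.21% to 8.57%). The part of library quality in these values was not tested.

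Library 18 (Pink1-/-) was apart for Gstp1 (33.1 CPM, others 44.1 to 45.0) and Rapgef5 (74.2, others 71.3 to 71.6). Library 19 (Pink1-/-) was apart for Nlrp1a (1.99 CPM, others 1.5 to 1.56), Ogn (4.44, others 3.43 to 3.54), Slc1a3 (246, others 235 to 236) and its total of 10959412 counts (others 13540087 to 13618637). Library 25 (Pink1-/-) was apart for Adam1a (6.49 CPM, others 8.57 to 8.99), Isl1 (2.74, others 1.17 to 1.43) and Olr1747-ps (1.88, others 1.7 to 1.71). In the WT group, library 23 was apart for Cbs (3.15 CPM, others 4.65 to 4.94), Col11a2 (16.3, others 19.9 to 20.5), Pus7l (3.4, others 2.58 to 2.7) and the 7SL share (0.282%, others 1.12% to 1.24%), library 24 for Dlg4 (78.7 CPM, others 63.5 to 63.9) and library 20 for Nlrp1a (3.13 CPM, others 4.41 to 4.48).

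The genotype effect differed between males and females by the edgeR interaction test, and the value given is the male log2 fold change less the female one. It was 0.79 for Slc7a5 (0.61 in males, -0.18 in females), -0.51 for Heca (-0.45 in males, 0.05 in females), -0.67 for Slc15a2 (-0.43 in males, 0.25 in females) and 1.0 for Aaas (0.70 in males, -0.30 in females). It was -1.2 for LOC100362027 (-1.49 in males, -0.29 in females), -3.98 for AABR07001512.1 (-4.20 in males, -0.22 in females), -3.81 for LOC689899 (-3.33 in males, 0.47 in females) and 2.32 for LOC100911515 (2.28 in males, -0.04 in females), 3 of which are like loci of Rpl30, Rpl23a and Tpi1. Sex and library processing cannot be told apart here.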

How the results depend on the processing

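No paired analysis was possible because the animal numbers of the 2 genotypes differ in all libraries. Of the values of single named genes under all alternatives, 2483 kept their side of the threshold, 515 lost the call and 61 gained one. A turn in sign was counted apart only where the gene was called in at least 1 of the fits compared. There were 2 of these, namely Rpl30 (-0.29) and M6pr (-0.23) with like loci merged. Values called in neither fit stayed among the 2483 even if their sign turned. With like loci merged this held for Prmt1 (-0.02 to 0.37) and Rpl10a (-0.05 to 0.21). The counts are given as total, rises, falls and list members, against 317, 149, 168 and 36. They were 168, 65, 103 and 21 with library totals as the only scaling, 82, 37, 45 and 16 with the 7SL covariate, 844, 448, 396 and 93 with DESeq2, 957, 554, 403 and 95 with the likelihood ratio test, and 1219, 649, 570 and 110 at an adjusted p under 0.10. Without the low-count filter they were 523, 316, 207 and 57, with all 16 libraries in 1 fit 609, 355, 254 and 53, and without libraries 17 and 23 153, 69, 84 and 26. With 1 library left out they ranged from 98 to 217, 45 to 120, 53 to 98 and 15 to 28. The 12 interaction genes became 3 with library totals only and 21 with a floor of 1 CPM on the mean, and 3 to 13 with 1 male library left out. The male calls on the same side in females at an unadjusted p under 0.05 numbered 53. They became 41 with library totals only, 52 with other size factors and 44 with a floor of 1 CPM on the mean. With 1 male library left out they ranged from 27 to 43. The cause of these shifts was not tested. Other size factors, a floor of 1 CPM, voom weights, removal of abundant loci and the Chat covariate kept the total within 1.5 times (255 to 424). Depth and 4 libraries a group limit weakly expressed genes to large changes.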

Other observations

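Histocompatibility genes of the RT1 complex, which present peptides to T cells and differ between rat strains, gave 2 calls among 19 tested (RT1-N2 and RT1-CE16, both higher in Pink1-/-), with 14 of the 19 higher and 5 lower. That is a share to read beside the 2.3% of all genes called, and the 2 genes were not equally stable. RT1-N2 was in the core of calls that held whichever library was left out, whereas RT1-CE16 held in 1 of 8 such fits (edgeR adjusted p of up to 0.1) and had an adjusted p of 0.27 with the 7SL covariate. RSEM shares reads among near-identical loci and the sequences of these genes were not compared, so the split of reads among them is uncertain. The female libraries, given here as values with no test and chosen after they were seen, did not repeat the male pattern evenly. RT1-N2 had 6.49, 4.75, 3.2 and 6.83 CPM in female Pink1-/- and 0.0, 0.0, 3.84 and 3.08 CPM in female WT. RT1-CE16 had 0.606, 0.551, 1.18 and 0.494 CPM in female Pink1-/- and 4.41, 2.96, 0.0874 and 0.0395 CPM in female WT. In both genes WT females 64 and 111 stood on one side and WT females 504 and 980 on the other.

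The same division of the WT females appeared in other male calls. Mylk3 had 0.822, 1.03, 0.752 and 0.854 CPM in female Pink1-/- and 0.0544, 0.0, 0.786 and 1.5 CPM in female WT, so that animals 64 and 111 were near 0, as were all 4 male WT libraries. Retsat had 26.9, 23.3, 22.9 and 20.1 CPM in female Pink1-/- and 85.9, 69.5, 23.6 and 45.2 CPM in female WT. Jhy in turn was at 7.07 and 6.02 CPM in WT females 64 and 111 and at 12.3 and 14.6 CPM in 504 and 980. What sets these 2 pairs of WT females apart is not given in the labels and was not tested.

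Next to Pink1 in gene order, 6 of the 40 neighbouring tested genes had groups that did not overlap, against 15.2% of all genes tested.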
